A study of Citrus trifoliata and Citrus junos with 20 samples.

Results

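The comparison set the roots of Ziyang xiangcheng (Citrus junos, abbreviated Cj), a citrus rootstock tolerant of alkaline conditions, at a mildly alkaline pH of 8.0 against the same roots at pH 6.5. Its members were the 3 small RNA libraries of Cj at pH 8.0 and the 3 of Cj at pH 6.5, 6 of the 20 libraries of the series, and all 100 miRNAs listed with read counts, 49 known and 51 predicted. The seedlings of both groups were raised alike, in hydroponics, and harvested after 8 weeks. The pH of the nutrient solution was the only difference that the labels give. A library was made from the pooled roots of 3 seedlings. Whether the pools grew in separate vessels is not given, so the p-values speak of the spread among the sampled pools, which may be technical. The roots were taken whole, so that fewer cells of a type and less miRNA per cell cannot be told apart. The small RNA libraries used here hold no marker genes of root cell types, so the labelled tissue was not checked against them.

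miRNAs are short RNAs cut from hairpin precursors by a Dicer-like enzyme and loaded into an Argonaute protein, which they guide to mRNAs of matching sequence for cleavage or for a block of translation. In roots, conserved families act on auxin response factors and auxin receptors, on NAC, SPL, MYB, TCP and GRF transcription factors, and on genes for the use of phosphate, sulfate and copper. Small RNAs of 24 nt are mostly made by another Dicer-like enzyme than the usual 21-nt miRNAs and are best known for guiding DNA methylation.

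The sequences below are the mature miRNAs on which the results turn, as given in the deposited tables, with bases 2 to 8 from the 5′ end, the seed, in capitals. The first 6 stood out by a rise at pH 8.0, among them both copper-related members that rose.
csi-miRN52: uGAGCUGUuuggcuauucucgc
csi-miRN50: aCAGGAGGuggaacaaauaugaaa
csi-miR398: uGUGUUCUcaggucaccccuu
csi-miR397: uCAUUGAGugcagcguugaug
csi-miRN20: uUCCACGGcuuucuugaacgu
csi-miR399e: uGCCAAAGgagaauugcccug

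The next sequences are relatives that went another way. csi-miR399d and csi-miR399b share the seed of csi-miR399e. Counted from the 5′ end, the change from csi-miR399d to csi-miR399e is G13A and from csi-miR399d to csi-miR399b G21A. csi-miR396b differs from csi-miRN20 at 3 of 21 positions (A7G, U20G and G21U, written from csi-miR396b to csi-miRN20), the first of them in the seed.
csi-miR399d: uGCCAAAGgagaguugcccug
csi-miR399b: uGCCAAAGgagaguugcccua
csi-miR396b: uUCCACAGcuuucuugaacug

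The sequences of the last set fell at pH 8.0, except csi-miRN30. csi-miRN45, csi-miRN43 and csi-miRN40 are the predicted members of MIR160 and share 1 seed. csi-miRN34 and csi-miRN30, both assigned to MIR3627, differ at 4 of 22 positions.
csi-miRN45: uGCCUGGCucccuguaugccg
csi-miRN43: uGCCUGGCucccuguaugcuu
csi-miRN40: uGCCUGGCucccuguaugcca
csi-miR164: uGGAGAAGcagggcacgugca
csi-miR394: uUGGCAUUcuguccaccucc
csi-miRN49: gCUCUCUGugcuucugucauca
csi-miRN31: uUCUUUUUgcuacuucuacug
csi-miRN34: uUGUCGCCggagagauagcacc
csi-miRN30: uUGUCGCAggagcguuggcacc

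The listed miRNAs held 390658, 440396 and 394674 reads in the pH 6.5 libraries and 254842, 400530 and 497383 in those of pH 8.0. They made up 73.9% to 75.7% of the total mapped reads behind the TPM values at pH 6.5 and 65.5% to 70.1% at pH 8.0, so that shares of listed and of total reads can differ. The 5 most abundant miRNAs of a library took 53.2% to 54.2% of these reads at pH 6.5 and 49.2% to 51.9% at pH 8.0. Pearson's r of log levels between replicates, taken over miRNAs, which are not independent of each other, was 0.989 to 0.995. In both pairs that include pH 8.0 replicate 3, the chi-square per degree of freedom was 74.6 and 75.5, against 18.6 between replicates 1 and 2, so replicate 3 stood apart from them. Levels are given as CPM, the reads per 1000000 listed miRNA reads after scaling with TMM factors, which equalise the bulk of the miRNAs between libraries. Since csi-miR166a and csi-miR166e-3p held the same counts in each Cj library, they cannot be told apart here.

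In total 35 of the 96 miRNAs with enough reads to be tested (36.5%, with 11.5% higher and 25.0% lower) differed between pH 8.0 and pH 6.5 at an edgeR adjusted p under 0.05. For each of the 35 the libraries of one pH lay wholly above those of the other. The filter for enough reads ran over all 18 small RNA libraries, so reads outside this comparison could carry a miRNA into the test. csi-miRN32, among the rises, was tested only through such reads, with 0 reads at pH 6.5 and 11 at pH 8.0. Separation alone was not rare here, with 51 of the 96 (53.1%) not overlapping. Of the 35, 11 rose (4 known and 7 predicted) and 24 fell (14 known and 10 predicted). More than 2-fold changes made up 6 of the rises and 8 of the falls. Both counts of falls hold csi-miRN24 and csi-miRN25 separately, which are 1 sequence with the same reads.

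How many rose and how many fell depended on how the libraries were scaled. DESeq2 size factors gave 19 and 19. The counts were 14 and 21 with the totals behind the TPM values as library sizes, 17 and 21 with library sizes that leave out the 5 most abundant miRNAs, and 21 and 15 when TMM factors were taken from known miRNAs alone. Over all miRNAs the median log2 fold change of 0.03 was raised by 0.12 with the DESeq2 size factors and by 0.22 with the factors from known miRNAs, while the remaining scalings raised it by 0.04 and 0.10. All 11 rises and 15 of the 24 falls were called in the same direction under all 5 scalings. The 9 falls that were not were csi-miR399d, csi-miR473, csi-miR477b, csi-miR482a-3p, csi-miR482b, csi-miR482c, csi-miR530a, csi-miRN40 and csi-miRN51. Over the settings tried, with other tests, filters and samples, 10 rises and 8 falls held in each setting that gave them a value, which was 18 settings, or 17 for csi-miR399e and csi-miRN45.

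**Figure D1:**
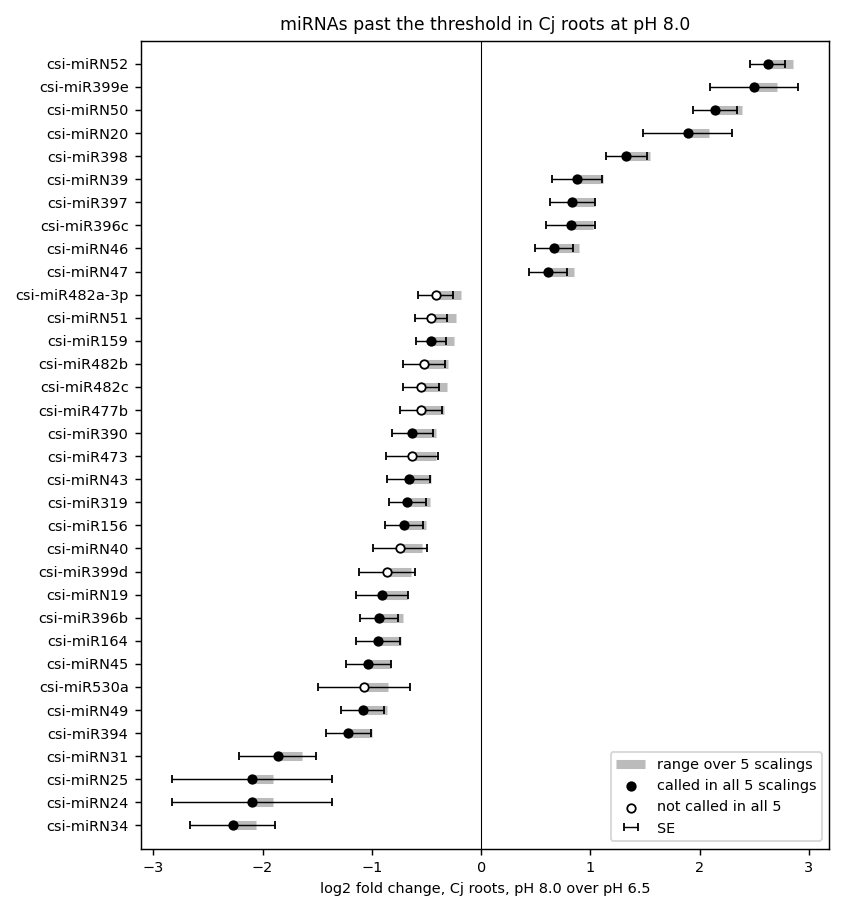
Change in level of the called miRNAs in Cj roots, as log2 fold change of pH 8.0 over pH 6.5 (x axis), 1 row per miRNA; points are edgeR estimates, whiskers the SE and grey bars the range over 5 scalings. csi-miRN32, with no reads at pH 6.5, is left out; the filled points, called under all 5 scalings, run from -2.27 for csi-miRN34 to 2.62 for csi-miRN52, and the open points were not called under each scaling.

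The clearest rise was that of csi-miRN52, a predicted 22-nt miRNA without an assigned family and with 4 listed hairpins on chromosome 2, the first at chr2:8711310-8711559 of the plus strand (Citrus sinensis genome, release not given in the sources used here). Its level was 4065, 3816 and 4075 CPM at pH 6.5 and 24659.7, 26281 and 22759.5 CPM at pH 8.0. The lowest pH 8.0 library thus lay far above the highest pH 6.5 library, and the change was 2.62 ± 0.16 on the log2 scale (SE; edgeR adjusted p = 4.81e-13). Its share of the listed reads went from 0.44% ± 0.02 to 3.10% ± 0.42 (SD, n = 3).

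A single member led the 22 predicted miRNAs of 24 nt. csi-miRN50, assigned to MIR9560 and with its hairpin at chr3:18988847-18989096 of the minus strand, was at 3763, 4257 and 5160.0 CPM at pH 6.5. In the pH 8.0 libraries it was at 24567, 19736 and 13740.2 CPM, lowest in replicate 3 and still above each pH 6.5 library (2.14 ± 0.20 on the log2 scale, edgeR adjusted p = 3.18e-09). csi-miRN39, csi-miRN46 and csi-miRN47 rose by less, with log2 fold changes of 0.88, 0.67 and 0.61 (edgeR adjusted p = 0.00407, 0.00418 and 0.00771). The pH 6.5 libraries agreed closely for csi-miRN47 (2239, 2224 and 2213 CPM), while those of pH 8.0 spread from 2778 CPM in replicate 3 to 4129.8 CPM in replicate 2.

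Of the 22 miRNAs of 24 nt, 4 rose and 0 fell in edgeR's test, against 11.5% and 25.0% of all 96 tested. The 22 had a median log2 fold change of 0.32, against 0.03 over all 96. The 18 that were not called ranged from -0.30 to 0.84, with the most abundant of them, csi-miRN44, at the upper end (0.84 ± 0.36, edgeR adjusted p = 0.0748). Together the 22 took 1.85%, 1.87% and 2.22% of the listed reads at pH 6.5 and 5.68%, 5.30% and 3.36% at pH 8.0. The groups did not overlap, and the exact two-sided permutation p of 0.1 is the smallest that 3 libraries against 3 allow. Without csi-miRN50 the difference of 2.80 percentage points fell to 0.83. Of the total mapped reads the 22 went from 1.49% ± 0.17 to 3.24% ± 0.77 (SD, n = 3), a difference of 1.76 points. Without csi-miRN50 that difference was 0.46 points, and the groups overlapped (exact two-sided permutation p = 0.2).

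**Figure D2:**
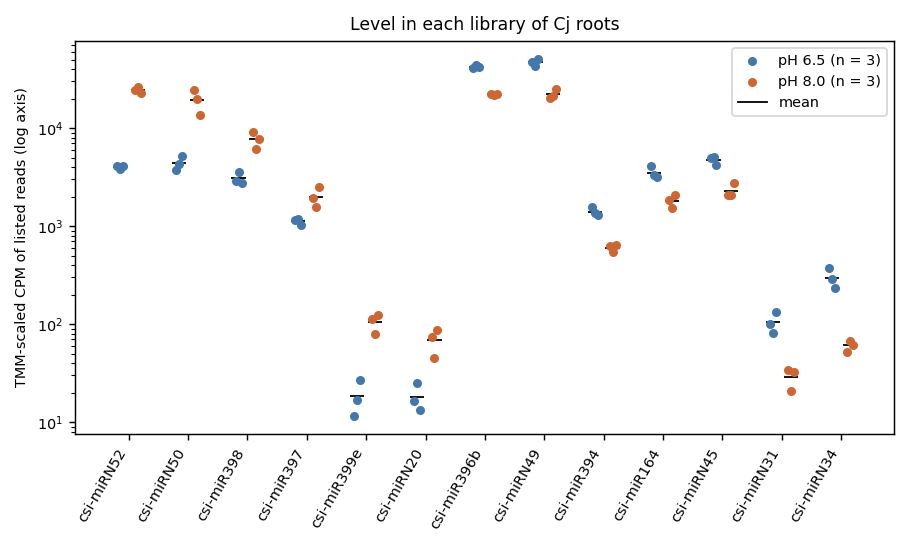
Level of 13 miRNAs in the 6 Cj libraries as TMM-scaled CPM on a log axis, with 1 point per library (blue, pH 6.5; orange, pH 8.0) and the mean as a line. In each of the 13 the colours do not overlap; csi-miRN52 went from between 3816 and 4075 CPM to between 22759.5 and 26281 CPM, and csi-miR396b from a mean of 42297 to 22098 CPM.

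The copper-related miRNAs act, in Arabidopsis, on mRNAs of copper proteins and are known to accumulate when copper is short. In the study, copper measured in Cj roots rose with pH, and a link to these miRNAs was not tested. csi-miR398, whose family acts on copper/zinc superoxide dismutase, was at 2859, 3537 and 2773 CPM at pH 6.5 and at 9131, 6143 and 7765 CPM at pH 8.0. The groups were well apart, and the rise was 1.33 ± 0.19 on the log2 scale (edgeR adjusted p = 6.02e-06). csi-miR397, which acts on laccases, was at 1164, 1173 and 1025 CPM and then at 1918, 1563 and 2519 CPM, all pH 8.0 libraries higher (0.84 ± 0.21, edgeR adjusted p = 0.00299).

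csi-miR408, which acts on plantacyanin and laccases and was the most abundant of the copper-related miRNAs, was at 20597, 19039 and 16972 CPM at pH 6.5 and 24054, 20433 and 30116 CPM at pH 8.0. Here replicate 2 of pH 8.0 fell within the pH 6.5 range, and the change of 0.40 ± 0.18 was not called (edgeR adjusted p = 0.0784), although each of the 4 other scalings called it. So 2 of the 3 copper-related members rose and 0 fell, against 11.5% and 25.0% of all 96 tested, with a median of 0.84. Ratios of reads within a library need no scaling between libraries. The ratio of csi-miR398 to csi-miR408 was 0.139, 0.186 and 0.163 at pH 6.5 and 0.380, 0.301 and 0.258 at pH 8.0. These did not overlap (exact two-sided permutation p = 0.1, the smallest possible), in a pair chosen with its values known.

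In the phosphate and sulfate list, near-identical members of MIR399, which acts on the ubiquitin-conjugating enzyme PHO2, went opposite ways. csi-miR399e was at 11.6, 16.7 and 26.8 CPM at pH 6.5 and at 114, 78.9 and 124 CPM at pH 8.0 (2.50 ± 0.40, edgeR adjusted p = 3.74e-05). csi-miR399d was at 265, 312 and 290.3 CPM and then at 178, 143 and 158 CPM, each pH 8.0 library lower (-0.86 ± 0.26, edgeR adjusted p = 0.0104). The call of csi-miR399d was lost when TMM factors came from known miRNAs alone and without pH 8.0 replicate 2, and its largest adjusted p in any setting was 0.115.

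The ratio of csi-miR399e to csi-miR399d reads needs no scaling. As the pair was chosen with its values known, the ratio is no separate test of the shift. It was 0.0439, 0.0533 and 0.0923 in the pH 6.5 libraries and 0.638, 0.553 and 0.783 in those of pH 8.0, a difference of 3.44 on the log2 scale. Since these sequences differ by 1 base, the counts depend on how the authors' counting parted such reads. csi-miR399b stayed below the threshold (-0.18 ± 0.32), as did csi-miR827, which acts on SPX-domain genes and had few reads (0.16 ± 1.15). csi-miR395, which acts on ATP sulfurylase, and csi-miR399a had too few reads over the 18 libraries to be tested. Of the 4 members tested, 1 rose and 1 fell, against 11.5% and 25.0% of all 96 tested.

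**Figure D3:**
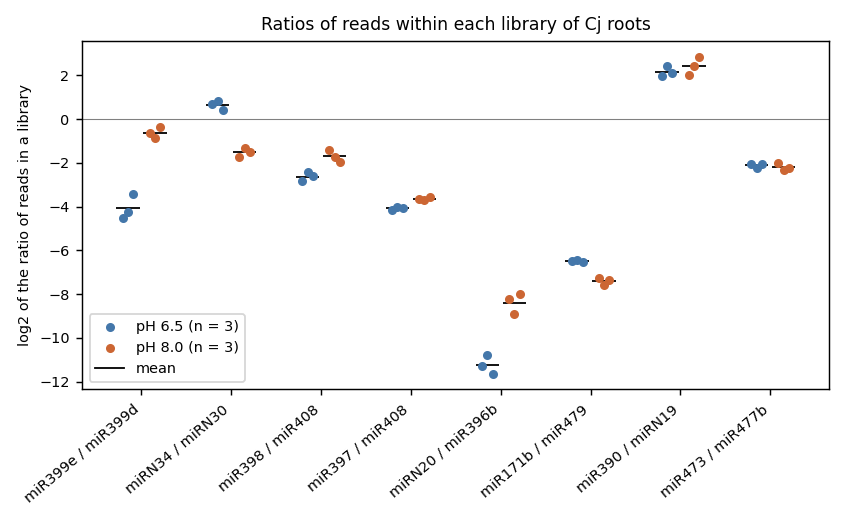
Ratio of the reads of 2 miRNAs within each Cj library, as log2 on the y axis, for 8 pairs (blue, pH 6.5; orange, pH 8.0; line, mean; n = 3). The ratio of csi-miR399e to csi-miR399d rose by 3.44 and that of csi-miRN34 to csi-miRN30 fell by 2.16 on this scale, while that of csi-miR473 to csi-miR477b overlapped between the groups.

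Among the auxin-related miRNAs 0 of 8 rose and 5 fell in edgeR's test, with a median of -0.65. Over all 96 tested miRNAs 11.5% rose and 25.0% fell, with a median of 0.03. MIR160 acts on auxin response factors, and its 3 predicted members all fell. csi-miRN43 and csi-miRN40 differ from csi-miRN45 at 2 and 1 of 21 positions, so their counts also depend on how such reads were parted. csi-miRN45 went from 4929, 5034 and 4164 CPM at pH 6.5 to 2063, 2066 and 2761 CPM at pH 8.0, with no overlap (-1.04 ± 0.21, edgeR adjusted p = 0.000318). csi-miRN43 changed by -0.66 (edgeR adjusted p = 0.0103) and csi-miRN40 by -0.74 (edgeR adjusted p = 0.0186). In both, replicate 3 was the highest of the pH 8.0 libraries, and both calls were lost without pH 6.5 replicate 3, without pH 8.0 replicate 1 and without pH 8.0 replicate 2 (largest adjusted p 0.202 and 0.191). That of csi-miRN40 was also lost without pH 6.5 replicate 2.

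csi-miR164, which acts on NAC transcription factors with a role in lateral root formation in Arabidopsis, was at 4058, 3299 and 3191 CPM at pH 6.5 and at 1845, 1534 and 2086 CPM at pH 8.0. The highest pH 8.0 library lay well below the lowest of pH 6.5 (-0.95 ± 0.20, edgeR adjusted p = 0.000646). csi-miRN09, a predicted sequence with the same seed, did not follow (0.08 ± 0.40). csi-miR390, which starts the making of trans-acting siRNAs against auxin response factors, went from 4785, 4618 and 4530.4 CPM to 2878, 2671 and 3449.7 CPM (-0.63 ± 0.19, edgeR adjusted p = 0.0104), and its call was lost without pH 6.5 replicate 3, pH 8.0 replicate 1 or pH 8.0 replicate 2.

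The 3 auxin-related members that were not called ranged from -0.42 for csi-miR393, which acts on the TIR1/AFB auxin receptors (-0.42 ± 0.26), to 0.38 for csi-miR167b. csi-miR167b acts on other auxin response factors than MIR160. It was the most abundant of the list at pH 8.0, at 5921, 5179.9 and 5437 CPM at pH 6.5 and 6041, 7279 and 8169 CPM at pH 8.0. Its libraries did not overlap and were higher at pH 8.0, with an edgeR adjusted p of 0.0855, while 6 of the 8 members had estimates below 0. The 4 other scalings each called it higher.

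Growth-related families gave a fall of the abundant member and a rise of a rare relative in MIR396, which acts on GRF transcription factors. csi-miR396b was at 41105, 43484 and 42303 CPM at pH 6.5 and at 22013, 21851 and 22429.7 CPM at pH 8.0, tight within each group (-0.94 ± 0.17, edgeR adjusted p = 0.000145). csi-miRN20 was at 16.3, 25.0 and 13.4 CPM and then at 73.8, 45.1 and 87.6 CPM, with no overlap (1.89 ± 0.41, edgeR adjusted p = 0.000696). It remained rare beside csi-miR396b, at no more than 0.00391 of its reads in any of the 6 libraries.

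csi-miR394, whose target in Arabidopsis is the F-box gene LCR, with a part in the shoot meristem, fell from 1561, 1358 and 1295 CPM to 624, 541 and 646 CPM. The groups were far apart (-1.22 ± 0.21, edgeR adjusted p = 6.16e-05). The 4 other growth-related members were not called, between -0.59 for csi-miR171b and 0.42 for csi-miR172c, with csi-miR171a the most abundant of them (-0.24 ± 0.23). MIR171 acts on GRAS-type SCL genes and MIR172 on AP2-type genes. In all, 1 of the 7 rose and 2 fell, against 11.5% and 25.0% of all 96 tested.

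The SPL and MYB/TCP list held the most abundant miRNA of the roots, csi-miR159, which acts on MYB transcription factors. It was at 307809, 307241 and 279519 CPM at pH 6.5 and at 207939, 202380.4 and 239621 CPM at pH 8.0, lower in all 3 (-0.46 ± 0.14, edgeR adjusted p = 0.0103). As a share of the listed reads it went from 33.05% ± 1.17 to 27.2% ± 0.78 (SD, n = 3). The call held under all 5 scalings but was lost without pH 6.5 replicate 3, pH 8.0 replicate 1 or pH 8.0 replicate 2 and in 4 other settings (adjusted p up to 0.216).

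csi-miR319, the relative of csi-miR159 that acts on TCP transcription factors, was at 18385, 18857 and 17655 CPM and then at 11218, 9889.8 and 13232 CPM, with no overlap (-0.68 ± 0.17, edgeR adjusted p = 0.00299). csi-miR156, which acts on SPL genes, was at 30483, 30615 and 28546 CPM and then at 15467, 14331 and 25254 CPM. Replicate 3 of pH 8.0 lay much nearer the pH 6.5 libraries than the other two (-0.70 ± 0.18, edgeR adjusted p = 0.00299), and without that replicate the change was larger, at -0.92. The call of csi-miR156 was lost without pH 8.0 replicate 1 or 2, and that of csi-miR319 without pH 8.0 replicate 2 (edgeR adjusted p = 0.0572). csi-miR535, also known to act on SPL genes and much rarer, was not called (-0.44 ± 0.27). Thus 3 of 4 fell and 0 rose, against 25.0% and 11.5% of all 96 tested. The list went from 38.4% ± 1.25 to 30.9% ± 1.45 of the listed reads (SD, n = 3).

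MIR166, whose targets are HD-ZIP III transcription factors, supplied 3 of the 5 most abundant miRNAs of the 6 libraries, beside csi-miR159 and csi-miRN51. For the last of these places csi-miR166a and csi-miR166e-3p were tied. The 5 names share 1 seed, and 0 of them passed the edgeR threshold, against 36.5% of all 96 tested. Their changes ran from 0.08 for csi-miR166a and csi-miR166e-3p to 0.28 for csi-miR166d. csi-miR166c, the most abundant, was at 44968, 46481 and 46860.0 CPM at pH 6.5 and 51041, 48801 and 60135 CPM at pH 8.0 (0.21 ± 0.15, edgeR adjusted p = 0.278). When TMM factors came from known miRNAs alone all 5 were called higher, with DESeq2 size factors or without the 5 most abundant miRNAs 2, and with the totals behind the TPM values 0. In unscaled shares the 5 names together went from 21.4% ± 0.95 to 27.1% ± 1.40 of the listed reads (SD, n = 3), with csi-miR166a and csi-miR166e-3p counted in both names. The 20 bases of csi-miR166c also lie whole within the other MIR166 sequences. Summed MIR166 shares, and the listed reads they are set against, may thus hold the same reads under more than 1 name. Of the total mapped reads the 5 names went from 16.04% ± 0.91 to 18.5% ± 1.56, a difference of 2.45 against 5.74 percentage points.

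**Figure D4:**
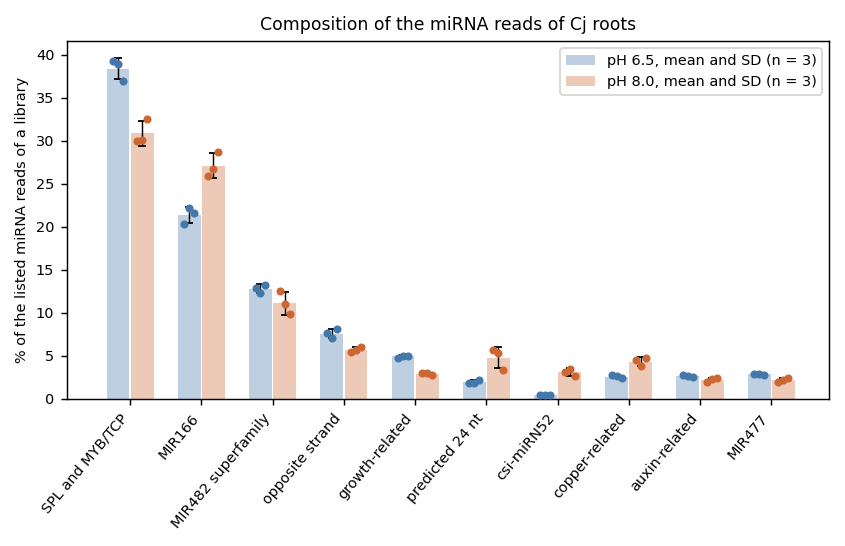
Share of each group of miRNAs in the listed miRNA reads of a Cj library, in percent, as mean and SD of 3 libraries at pH 6.5 (blue) and pH 8.0 (orange) with 1 point per library. The SPL and MYB/TCP miRNAs went from 38.4% to 30.9%, MIR166 from 21.4% to 27.1%, the predicted 24-nt miRNAs from 1.98% to 4.78% and csi-miRN52 from 0.44% to 3.10%. The MIR166 share may hold the same reads under more than 1 name.

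The MIR482 superfamily, whose targets are disease resistance genes of the NBS-LRR type, was lower at pH 8.0 by small amounts that depended on the scaling. Of its 6 members 4 fell and 0 rose in edgeR's test, against 25.0% and 11.5% of all 96 tested, with a median of -0.44. csi-miRN51, its most abundant member, went from 50906, 48872 and 49159.8 CPM to 41858, 32218 and 34230.3 CPM (-0.46 ± 0.15, edgeR adjusted p = 0.0163). csi-miR482c changed by -0.55, csi-miR482b by -0.52 and csi-miR482a-3p by -0.41 (edgeR adjusted p = 0.0114, 0.0312 and 0.0447). csi-miR472 and csi-miRN48, the last the more abundant, were not called (-0.19 each).

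In TMM-scaled levels all 6 members of the superfamily had their pH 8.0 libraries below those of pH 6.5, as had 32 of all 96 tested. No member was called under all 5 scalings. TMM factors from known miRNAs alone left 0 falls and turned the estimates of 2 members above 0 (up to 0.04), and DESeq2 size factors left 2 falls, with medians of -0.21 and -0.32. The falls of csi-miR482a-3p and csi-miR482b were each lost on leaving out any 1 of the 6 libraries, those of csi-miR482c without 4 of them and those of csi-miRN51 without pH 6.5 replicate 1 or 3 or pH 8.0 replicate 2 or 3.

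Both MIR477 members fell, against 25.0% of all 96 tested. csi-miR477b went from 21001, 22050.3 and 19865 CPM to 12175, 13877 and 16853 CPM (-0.55 ± 0.19, edgeR adjusted p = 0.0253). csi-miR473 fell by a like amount (-0.63 ± 0.24, edgeR adjusted p = 0.0411). The highest pH 8.0 libraries still lay below the lowest of pH 6.5. Neither was called under all 5 scalings, and csi-miR473 lost its call without any 1 of the 6 libraries. csi-miR477b lost it without any 1 of the pH 6.5 libraries or without pH 8.0 replicate 1 or 2 (largest adjusted p 0.262) and held in 7 of 18 settings. The ratio of csi-miR473 to csi-miR477b ran from 0.215 to 0.242 at pH 6.5 and from 0.202 to 0.251 at pH 8.0 and so overlapped.

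In MIR3627, 1 of 2 predicted members fell, against 25.0% of all 96 tested. csi-miRN34 went from 369, 289.5 and 232 CPM at pH 6.5 to 52.3, 67.6 and 61.8 CPM at pH 8.0 (-2.27 ± 0.39, edgeR adjusted p = 6.66e-05). csi-miRN30 was at 228, 165 and 176 CPM and at 172, 169 and 177 CPM, and its groups overlapped (-0.13 ± 0.27). There were more reads of csi-miRN34 than of csi-miRN30 in each pH 6.5 library, with ratios of 1.62, 1.76 and 1.32, and fewer in each pH 8.0 library, with ratios of 0.304, 0.400 and 0.350. Their hairpins lie 3734 bases apart and on opposite strands, csi-miRN34 at chr6:19944457-19944706 of the minus strand and csi-miRN30 at chr6:19948441-19948690 of the plus strand.

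Of the other 12 predicted miRNAs of 21 to 23 nt, csi-miRN52 rose and 3 names fell, against 11.5% and 25.0% of all 96 tested. csi-miRN31, without an assigned family and with its hairpin at chr5:7058643-7058892 of the minus strand, was at 99.9, 81.2 and 134 CPM at pH 6.5 and 33.8, 20.7 and 32.6 CPM at pH 8.0 (-1.86 ± 0.36, edgeR adjusted p = 0.000196). csi-miRN24 and csi-miRN25 are 1 sequence under both names, at 32.5, 22.9 and 26.8 CPM and then at 3.07, 1.88 and 12.03 CPM (-2.10 ± 0.73, edgeR adjusted p = 0.0253). At these levels pH 8.0 replicates 1 and 2 lay below the 9.22 and 5.63 CPM that 3 reads are worth in them. The call was lost with DESeq2 and without pH 6.5 replicate 1 or 3 or pH 8.0 replicate 1 or 2 (adjusted p up to 0.147). With the 6 libraries of the comparison alone neither name had enough reads to be tested. The 8 others ranged from -0.76 to 0.87, the most abundant being csi-miRN41 (-0.02 ± 0.26) and the largest change that of csi-miRN21, which had 3 reads over the pH 6.5 libraries and 6 over those of pH 8.0.

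The last list held 14 sequences largely complementary to another listed miRNA, as the opposite strand of a hairpin is. csi-miRN49, the partner-like sequence assigned to MIR156, was among the most abundant miRNAs at pH 6.5, at 46655, 43274 and 51098 CPM. It was at 20116, 21229 and 25129 CPM at pH 8.0, about as far down as csi-miR396b (-1.08 ± 0.20, edgeR adjusted p = 0.000127). csi-miRN19, from the other arm of a MIR390 hairpin, went from 1231, 866 and 1052 CPM to 719, 492 and 476 CPM (-0.91 ± 0.24, edgeR adjusted p = 0.00443).

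csi-miR396c, assigned to MIR396, rose from 499, 502 and 393 CPM to 729, 738 and 993 CPM, without overlap and against the fall of csi-miR396b (0.82 ± 0.22, edgeR adjusted p = 0.00564). csi-miRN32 lies on the arm opposite csi-miR396b in its listed hairpin. No read of it was counted at pH 6.5 and 11 over the pH 8.0 libraries. With 3 reads set for the pH 6.5 group, the limit that a count of 0 allows, the level at pH 8.0 was 3.46-fold higher. That value takes the 11 reads as exact, 7 of them in pH 8.0 replicate 2, and so is not a lower bound. The call of csi-miRN32 (edgeR adjusted p = 0.0395) was lost without any 1 library of pH 6.5 or without pH 8.0 replicate 2. It passed the read filter only through libraries outside this comparison, and with the 6 libraries alone it was not tested. The 10 other sequences of this kind ranged from -0.37 to 1.31, the most abundant being csi-miR479 (0.31 ± 0.17, edgeR adjusted p = 0.151) and the largest change that of csi-miRN05 (1.31 ± 0.69).

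For 10 pairs both arms of 1 listed hairpin were counted, and the ratio of the arms could be taken in 9 of them. It did not overlap between pH 6.5 and pH 8.0 in 3. For csi-miR171b to csi-miR479 the ratio was 0.0112, 0.0114 and 0.0109 at pH 6.5 and 0.00657, 0.00525 and 0.00610 at pH 8.0, so the arm named csi-miR479 was by far the more abundant and became more so. csi-miR162-3p to csi-miR162-5p went from between 16.4 and 16.9 to between 12.4 and 15.8, while csi-miR172a-3p to csi-miR172a-5p rested on as few as 2 reads of the rarer arm.

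In the other 6 pairs the ratios overlapped. csi-miR166a was at 4.93 to 5.82 times csi-miR166e-5p at pH 6.5 and 5.15 to 5.78 times at pH 8.0, and csi-miR390 at 3.89 to 5.33 and then 4.00 to 7.25 times csi-miRN19, which fell along with it. csi-miR482a-3p to csi-miR482a-5p, csi-miR171a to csi-miRN05, csi-miR535 to csi-miRN07 (with its double csi-miRN08) and csi-miR393 to csi-miRN18 were the others. Over all 21 ratios computed, 12 did not overlap, and the exact two-sided permutation p of each of those was 0.1, the smallest possible with 3 libraries against 3 (0.175 after Benjamini-Hochberg adjustment). The pairs that are not arms of a hairpin were chosen with their values known.

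Few of the remaining known miRNAs moved. In the small RNA machinery list, csi-miR162-3p, which acts on DCL1 (-0.13 ± 0.17), csi-miR403, which acts on AGO2 (0.03 ± 0.18), and csi-miR1515 (0.84 ± 0.44, from 8.33 to 76.7 CPM at pH 6.5) were not called by edgeR, and 0 of the 3 were called under any of the 4 other scalings. Of the 4 other known miRNAs tested, csi-miR530a fell, from 55.7, 58.3 and 71.4 CPM to 46.1, 18.8 and 27.5 CPM (-1.07 ± 0.42, edgeR adjusted p = 0.0489), a call that held in 2 of 18 settings. csi-miR3951, the most abundant of them, was at 0.14 ± 0.16 and csi-miR3954 at 0.39 ± 0.21. csi-miR3952 was higher in all 3 pH 8.0 libraries, at 11095, 11695 and 10105 CPM against 8685, 7889.6 and 8534 CPM, and was not called with TMM factors (0.39 ± 0.16, edgeR adjusted p = 0.0689) but was under each of the 4 other scalings.

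The same step of pH was set in trifoliate orange (Poncirus trifoliata, Pt), a rootstock sensitive to alkaline conditions, whose 6 libraries share none with those of Cj. Its pH 8.0 replicate 1 was shallow, with 77255 listed reads against 690025 and 771522 in the other replicates, and listed miRNAs made up 61.8% of its total mapped reads against 74.3% and 74.6%. The difference in response was tested as 1 contrast, and it passed for 10 of the 96 miRNAs (10.4%, with 4.17% higher and 6.25% lower in Cj), 8 of them among the 35 called in Cj. csi-miRN52 rose more in Cj than in Pt, by 2.62 against 1.06 on the log2 scale (difference 1.57, edgeR adjusted p = 1.12e-05), and so did csi-miRN50, by 2.14 against 1.11 (difference 1.03, edgeR adjusted p = 0.0149). At pH 6.5 Cj started much lower, with 3985 CPM of csi-miRN52 against 25591 CPM in Pt, and 4393 CPM of csi-miRN50 against 25629 CPM.

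In Pt itself 9 of 96 miRNAs were called (9.38%), 5 of them higher (5.21%) and 4 lower (4.17%). The other 6 that were called in Cj fell there and were not called in Pt. csi-miRN34 changed by -2.27 in Cj and 0.28 in Pt (difference -2.55, edgeR adjusted p = 0.00446) and csi-miR394 by -1.22 and 0.22 (-1.44, edgeR adjusted p = 0.00127). csi-miR164, csi-miR390, csi-miR396b and csi-miR319 differed by -1.05, -0.98, -0.89 and -0.77 (edgeR adjusted p = 0.0149, 0.0149, 0.0149 and 0.0358). The differences of csi-miRN52, csi-miRN34 and csi-miR394 held in all 20 settings tried, those of csi-miRN50 and csi-miR396b in 19, of csi-miR164 in 17, of csi-miR390 in 16 and of csi-miR319 in 4. That of csi-miRN50 was lost without Cj pH 6.5 replicate 1 and that of csi-miR396b without Pt pH 8.0 replicate 3. Without the shallow Pt library 9 differences passed, and of the 8 miRNAs called in Cj only csi-miR319 was lost. For csi-miR398 and csi-miR399e, which also rose in Pt (0.77 and 1.45), the difference did not pass (0.55 and 1.04, edgeR adjusted p = 0.177 and 0.221).

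**Figure D5:**
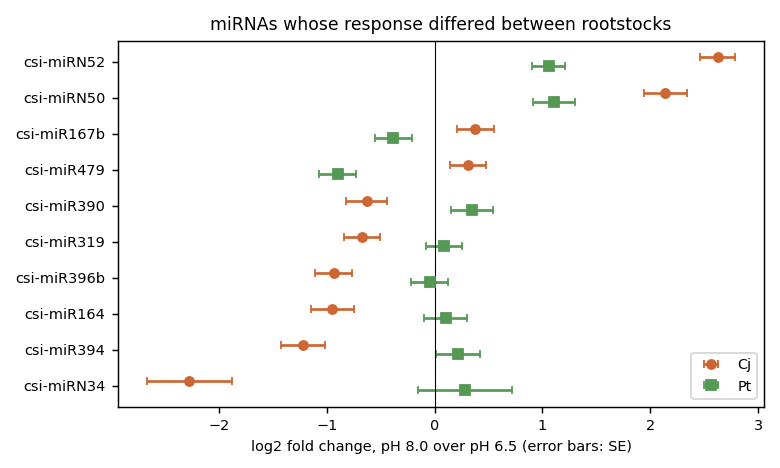
Response to pH 8.0 of the 10 miRNAs whose response differed between the rootstocks, as log2 fold change over pH 6.5 (x axis) with its SE, in Cj (orange circles) and Pt (green squares). For csi-miRN34 the estimates were -2.27 in Cj and 0.28 in Pt, and for csi-miRN52 2.62 and 1.06.

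The step from pH 8.0 to pH 9.5 in Cj shares the pH 8.0 libraries with the comparison above, so the values stand only side by side. It passed for 9 of 96 miRNAs (9.38%, with 3.12% higher and 6.25% lower), of which 7 were among the 35. csi-miR398 and csi-miRN50 were higher again at pH 9.5 (0.84 and 0.83 on the log2 scale, edgeR adjusted p = 0.00303 and 0.00445) and csi-miRN49, csi-miR473 and csi-miR477b lower again (-0.64, -0.93 and -0.93, edgeR adjusted p = 0.0334, 0.0104 and 0.00229). The changes of csi-miR397 (-0.82, edgeR adjusted p = 0.00762) and csi-miR394 (0.76, edgeR adjusted p = 0.0127) went against those at pH 8.0. Without pH 8.0 replicate 3 the step was not called for csi-miRN49 and csi-miRN50, for csi-miRN50 it was also not called when TMM factors came from known miRNAs alone, and for csi-miR394 it was not called without pH 8.0 replicate 1 or 2 or pH 9.5 replicate 2 or 3. csi-miR397 was thus at a mean of 1120.4 CPM at pH 6.5, 1999.8 CPM at pH 8.0 and 1130.0 CPM at pH 9.5. csi-miR394 had means of 1405, 604 and 1019.8 CPM in the same order. For csi-miRN52, csi-miRN34, csi-miRN31 and csi-miR399e the step was not called, with changes of 0.35, 0.07, 0.02 and 0.17. Set against pH 6.5, whose libraries are again shared, pH 9.5 gave 27 calls of 96 (28.1%, with 12.5% higher and 15.6% lower), with log2 fold changes of 2.98 for csi-miRN52, 2.97 for csi-miRN50, 2.17 for csi-miR398 and -2.21 for csi-miRN34.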

How the data were processed

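Small RNA of Cj and Pt roots from 3 pH levels (3 libraries each) was compared, and the 2 degradome libraries were not used. The authors removed adapters, filtered out structural RNAs and repeats with Bowtie, matched reads to the Citrus sinensis genome and miRBase, and predicted further miRNAs with miRDeep2. The counts deposited by the authors are unnormalised reads per mature miRNA. The deposited TPM values divide these counts by the total mapped reads of a library, with no term for length, and gave only library totals. The score and the hairpin energy (other) deposited by the authors for predicted miRNAs were not used in tests. Of 103 lines with values, 3 repeats of csi-miRN52 were dropped, and 1 further line without values is not reported here. For 4 pairs of names the sequence is the same.

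Counts were fitted with edgeR 4.0.16 (R 4.3.3), using TMM factors, filterByExpr (minimum count 10, minimum total 15) and a quasi-likelihood model with 1 mean for each of the 6 groups over 18 libraries. edgeR stands in for the DESeq 1.10.1 of the study. Benjamini-Hochberg adjusted p under 0.05 over 96 miRNAs was the threshold, with no fold threshold, and the SE was derived from the F statistic. Libraries of 254842 to 497383 listed reads put 3 reads at 5.15 to 9.22 CPM. Floors cover counting error only, as reads carry no molecular tags. On simulated data for this comparison (10 runs, 94 miRNAs tested on average) 78% of 2-fold and 94% of 3-fold changes were recovered, and 3.37% of calls were false. The simulated counts had 1 mean per miRNA over all 18 libraries, as many planted rises as falls and no library set apart. Errors from the choice of scaling or from an outlying library were therefore not covered. Shares and ratios were compared with exact permutation tests (scipy 1.17.1). Alternatives were 4 other scalings, no filter, DESeq2 1.42.0, limma 3.58.1, only the 6 libraries, merged or repeated sequences, a replicate block and leaving out libraries.

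The members, lists and tests were chosen with earlier results of these data known. By rule, all called miRNAs were named, the most abundant and the most changed of those not called in each list, the 5 most abundant miRNAs and the pairs of hairpin arms. csi-miRN09, csi-miR172c, csi-miR403, csi-miR827, csi-miR3952 and the pairs of relatives were added after their values were seen.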

Additional observations from a re-analysis of the deposited data

Results flagged for a closer look

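The response to pH 8.0 differed between Cj and Pt, by the edgeR test of the difference itself, for 10 miRNAs. Given as the log2 fold change in Cj minus that in Pt, the differences were 1.57 for csi-miRN52, 1.03 for csi-miRN50, -2.55 for csi-miRN34, -1.44 for csi-miR394, -1.05 for csi-miR164, -0.98 for csi-miR390, -0.89 for csi-miR396b and -0.77 for csi-miR319. Beside these 8, which were called in Cj, there were 2 that were not. csi-miR479 was at 0.31 in Cj and -0.90 in Pt, a difference of 1.21 (edgeR adjusted p = 0.00127) that held in all 20 settings. csi-miR167b was at 0.38 in Cj and -0.38 in Pt, a difference of 0.76 (edgeR adjusted p = 0.0391) that held in 11 of 20 settings.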

How the results depend on the processing

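The count of 35 changed miRNAs in Cj was between 29 and 41 under the alternatives that keep all 6 libraries, and from 19 to 38 on leaving out 1 library (19 without pH 8.0 replicate 2, 21 without pH 6.5 replicate 3). With csi-miR166e-3p left out, a setting chosen after seeing the data, 17 rose and 17 fell, with MIR166, MIR399 and MIR160 summed 17 and 15, with the 6 libraries alone 21 and 20, with DESeq2 15 and 14 and with no filter 12 and 18. No called miRNA changed direction in any setting. Replicate numbers did not pair the samples (r of -0.01, -0.16 and -0.21 between deviations of same-numbered libraries). A replicate block gave 37 calls for pH 8.0 against pH 6.5, 15 for the difference between rootstocks and 13 for pH 9.5 against pH 8.0. The count of 10 miRNAs that differed between the rootstocks was 17 with library sizes from the TPM totals, 16 with library sizes without the 5 most abundant miRNAs, 17 when TMM factors came from known miRNAs alone and from 5 to 15 on leaving out 1 library (5 without Cj pH 6.5 replicate 1, 6 without Pt pH 8.0 replicate 3). That of 9 for pH 9.5 against pH 8.0 ran from 8 to 12 on leaving out 1 library. The share of the predicted 24-nt miRNAs in the listed reads differed by 0.83 points without csi-miRN50 and by 2.35 to 3.51 without 1 library. Of the total mapped reads it differed by 1.76 points, and by 0.46 without csi-miRN50, where the groups overlapped.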

Other observations

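By first base, which in plants goes with the Argonaute protein that loads a small RNA, the 57 miRNAs that start with U took 86.2% ± 0.57 of the listed reads in Cj at pH 6.5 and 85.6% ± 0.48 at pH 8.0 (SD, n = 3). The 26 that start with A took 4.84% ± 0.08 and 7.94% ± 0.75, with each pH 8.0 library above each pH 6.5 library, and the 9 that start with G took 6.53% ± 0.57 and 4.59% ± 0.09, with each below. Of the total mapped reads those with U went from 64.6% ± 0.92 to 58.3% ± 2.31, each pH 8.0 library below each pH 6.5 library. Those with A went from 3.63% to 5.40% and those with G from 4.90% to 3.13%. The near-constant share of U thus held for the listed reads only. csi-miRN50 starts with A and csi-miRN49 with G. Over the 26 shares of listed reads computed, the exact two-sided permutation p could not go below 0.1 (0.13 after Benjamini-Hochberg adjustment).

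The filter for enough reads ran over all 18 libraries, not over those of Cj alone. The 4 miRNAs with too few reads to be tested were csi-miR395, with 3 reads over the Cj pH 6.5 libraries and 1 over those of pH 8.0, csi-miR3953 with 2 and 8, csi-miR399a with 8 and 9, and csi-miR530b with 11 and 4.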
